A study of Mus musculus with 6 samples.

Results

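The genes described here are the AP-1 transcription factors of the FOS family (Fos, Fosb, Fosl1 and Fosl2) and of the JUN family (Jun, Junb and Jund), the related factors Atf3 and Batf3, and the immediate early factor Egr1. They were chosen by symbol, which found 10 of the 24214 features in the count tables, and all 10 had enough reads to be tested. AP-1 here means the DNA-binding dimer and not the clathrin adaptor that carries the same name. The cells, 393P_vector and 393P_ZEB1, were transfectants of a murine epithelial lung adenocarcinoma (LUAD) line, labelled as KP lung cancer cells of the C57BL/6 strain and grown in RPMI-1640 with fetal calf serum. The 3 393P_ZEB1 samples carried an expression vector for ZEB1, a transcription factor that represses epithelial genes, and the 3 393P_vector samples the empty vector. Total RNA was sequenced on the SOLiD platform. The lines were stable transfectants under drug selection, with no other treatment or time point stated. The labels do not say whether the 3 samples of a line were separate transfections or cultures, so p-values measure the spread among these samples, which may be technical.

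AP-1 is a dimer of basic leucine zipper (bZIP) proteins. JUN proteins can pair with each other or with a FOS or ATF protein, whereas FOS proteins need a partner from another family. The dimers bind a short palindromic element at promoters and enhancers. Fos, Fosb, Jun, Junb, Atf3 and Egr1 are immediate early genes, whose transcripts appear within minutes of growth factor or stress signals through MAP kinases and are short-lived, so that their level can depend on when cells were last fed or disturbed. Fosl1 and Fosl2 respond later and last longer, and Jund is largely constitutive. EGR1 is a zinc finger protein of another class that shares the upstream signals of FOS.

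The sequences before the starts of Fos, Fosb and Jun are shown because these are the AP-1 genes that changed and for which a known element lay in the window. Of the 10 genes, Fosl1 and Egr1 were either not matched in the RefSeq promoter table of GRCm38.p6 or left out. The windows of the other 8 come from that table. Each reads 5′ to 3′ on the strand of its gene, and bases are counted back from the start in that table, which for Fos lies slightly upstream of the start in the count tables. The Fos window is chr12:85473730-85473889 on the plus strand, and its capitals mark a TATA box (TATAAA) that begins 33 bases before the start. The Fosb window is chr7:19310119-19310205 on the minus strand, and its capitals mark a pair of E-boxes of the type that ZEB1 binds (CACCTG or its complement CAGGTG), which begin 153 and 146 bases before the start. The printed Fosb stretch ends 74 bases before the start, since bases within an annotated exon or the gene are not printed. The Jun window is chr4:95052223-95052382 on the minus strand, and its capitals mark a CRE-type site, TGANNTCA, of the kind bound by dimers of JUN and ATF proteins, which begins 45 bases before the start.
Fos: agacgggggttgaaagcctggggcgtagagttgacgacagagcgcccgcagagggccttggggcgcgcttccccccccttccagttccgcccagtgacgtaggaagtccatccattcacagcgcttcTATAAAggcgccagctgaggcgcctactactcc
Fosb: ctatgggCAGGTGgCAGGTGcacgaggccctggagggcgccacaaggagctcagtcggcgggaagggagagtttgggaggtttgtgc
Jun: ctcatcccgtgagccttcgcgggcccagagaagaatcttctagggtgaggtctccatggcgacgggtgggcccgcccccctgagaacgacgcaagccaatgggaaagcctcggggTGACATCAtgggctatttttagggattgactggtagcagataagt
Over the 250 bases before the start, searched on both strands, Jund also held a CRE-type site, TGAAATCA, which began 61 bases before its start. No motif searched matched in Fosl2, Junb, Atf3 or Batf3. No AP-1 site (TGANTCA) and no CArG box, the element bound by SRF, matched in any of the 8 windows. Bases further upstream and the windows of Fosl1 and Egr1 were not searched, so an element there could not have been found. Over all 32851 windows of this length in the table, 17.2% held the ZEB1-type E-box, 11.9% the CRE-type site, 12.4% the TATA box, 6.75% the AP-1 site and 1.47% the CArG box. A match describes the letters only, since no binding was measured. Only full matches were marked, so a partial one, such as tgacgtag in the Fos window beside TGANNTCA, was not. The windows of the 8 genes were 47.6% (Jund) to 76.0% (Batf3) G or C, beside a median of 52.4% over all windows.

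Libraries held 54442450 to 79158012 counts, and 3 counts, taken as the smallest level that can be shown, amounted to 0.0379 to 0.0551 CPM (counts relative to the library size after TMM normalization). The vector library with the most counts, 393P_vector replicate 3, stood apart. It differed at least 2-fold from replicates 1 and 2 in 6.89% and 7.75% of tested genes, whereas those 2 differed from each other in 0.900%. Between 393P_ZEB1 replicates the share was 0.914% to 1.29%. Zeb1 was at 21.2, 22.0 and 21.4 CPM in 393P_vector and at 54.9, 48.9 and 51.3 CPM in 393P_ZEB1, although reads from the transgene may be among them. Its log2 fold change was 1.26, and it lies on chromosome 18, whose tested genes had a median of 0.64. The part of the chromosome in this rise was not tested. Of 12 epithelial markers 11 fell and none rose, with Krt18, the most abundant, down from 2264 to 1327 CPM on average. All 7 mesenchymal markers rose, and Vim, the most abundant, went from 5508 to 7330 CPM. Of 8 lung epithelial markers, Foxa1 and Foxa2 were tested, at 24.2 to 49.7 CPM over all libraries, and neither passed. The other 6, among them the lung-defining Nkx2-1 and Sftpc, were below the low-count limit, with at most 5 counts in any library. The summed list reached 57.5 to 93.4 CPM in 393P_vector, highest in replicate 3, and 64.4 to 69.9 CPM in 393P_ZEB1. Summed fibroblast markers reached 2.53 to 3.45 CPM in 393P_vector and 2.81 to 3.64 CPM in 393P_ZEB1. Summed leukocyte and endothelial markers reached 4.4 to 6.39 and 2.14 to 2.78 CPM. These sums can hide opposite changes. Of 5 fibroblast markers tested, 2 rose, 1 fell and 2 did not pass. Of 5 leukocyte and endothelial markers tested, 1 fell and 4 did not pass.

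The AP-1 set changed in both directions. Fos, Fosb and Egr1 rose in 393P_ZEB1 cells and Jun and Fosl2 fell, so 5 of 10 genes passed an adjusted p of 0.05 in edgeR's quasi-likelihood test. Fosl1, Junb, Jund, Atf3 and Batf3 did not pass. Over all 13892 genes tested, 37.6% passed, 18.3% higher and 19.3% lower. The 5 genes that passed were also the 5 whose samples did not overlap between the groups, and over all genes 52.8% did not overlap. The median log2 fold change of the 10 genes was -0.23 and their median absolute change 0.42, beside -0.02 and 0.39 over all genes. With 10 genes, these shares and medians are not read as a difference from all genes. Tested against a change of 1.5-fold, only Egr1 and Jun among the 10 passed in edgeR.

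**Figure D1:**
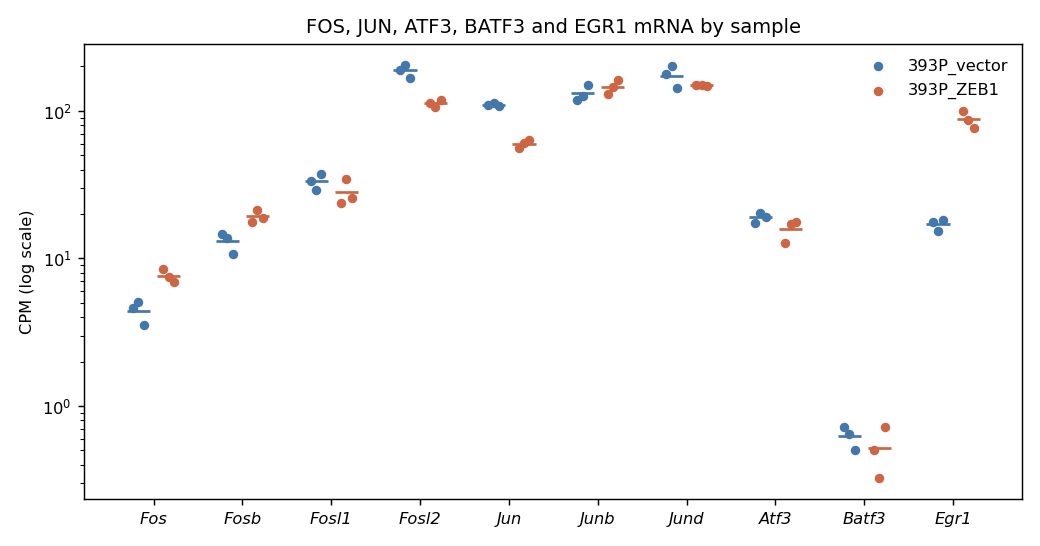
CPM on a log scale (vertical axis) of the 10 genes in each of the 3 393P_vector samples (blue) and the 3 393P_ZEB1 samples (orange), with horizontal bars at the group means. The groups are separate for Fos, Fosb, Fosl2, Jun and Egr1 and overlap for the other 5 genes.

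**Figure D2:**
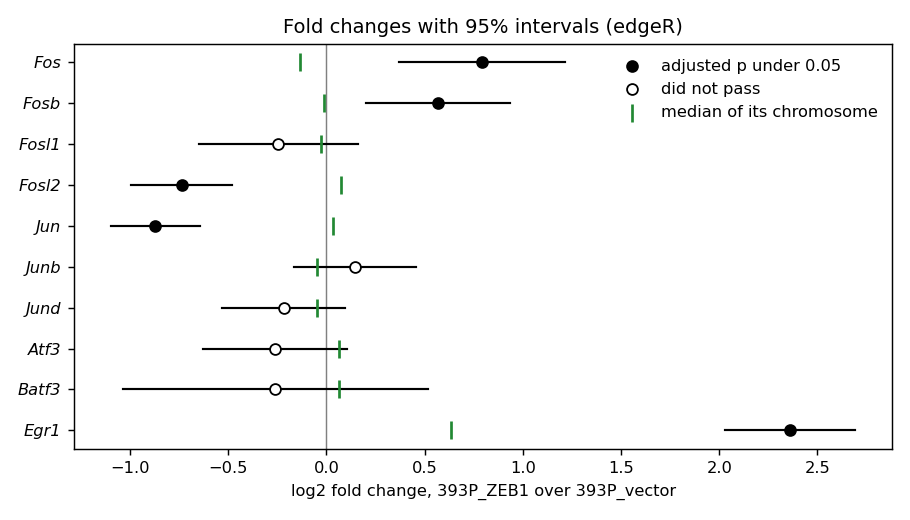
Log2 fold change of 393P_ZEB1 over 393P_vector (horizontal axis) for each gene, with 95% intervals from edgeR. Filled points passed an adjusted p of 0.05, open points did not, and green ticks mark the median change of all tested genes on the same chromosome, which was near 0 for every gene except Egr1.

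Within the FOS family the least abundant members rose and the most abundant fell. Fos, on chromosome 12 from 85473901 to 85477270 with 4 exons, encodes the prototype FOS protein. It was at 4.59, 5.07 and 3.55 CPM in 393P_vector and at 8.47, 7.43 and 6.94 CPM in 393P_ZEB1. Every 393P_ZEB1 sample lay above every 393P_vector sample. The log2 fold change was 0.79 (standard error 0.18, adjusted p = 0.0112, edgeR), which is 1.73-fold with a 95% interval of 1.29 to 2.32. Fosb, on chromosome 7 from 19302696 to 19310045, encodes a close relative of FOS. Its samples read 14.7, 13.7 and 10.7 CPM in 393P_vector and 17.7, 21.3 and 18.9 CPM in 393P_ZEB1. The groups were again separate, and the change was 0.57 on the log2 scale (standard error 0.16, adjusted p = 0.0247, edgeR). This call depended on single libraries. Without 393P_ZEB1 replicate 2 the adjusted p was 0.0957 and without 393P_ZEB1 replicate 3 it was 0.0676, in a range of 0.00192 to 0.814 over all alternatives.

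Fosl2, on chromosome 5 from 32136472 to 32157839, encodes FRA2, a FOS protein that lacks the strong activation domain of FOS. By group means it was the most abundant FOS gene per length of exon, although Fosl1 was above it in 393P_ZEB1 replicate 2. Its levels of 189.6, 205 and 168 CPM in 393P_vector fell to 113, 106 and 118 CPM in 393P_ZEB1. The lowest 393P_vector sample was well above the highest 393P_ZEB1 sample, and Fosl2 fell by 0.74 on the log2 scale (standard error 0.11, adjusted p = 0.0015, edgeR). Fosl1, on chromosome 19 from 5447698 to 5455938, encodes FRA1, which is often abundant in invasive carcinoma cells. It was at 33.4, 29.1 and 37.1 CPM in 393P_vector and at 23.7, 34.7 and 25.7 CPM in 393P_ZEB1. One 393P_ZEB1 sample, replicate 2, lay among the 393P_vector samples. The change of -0.25 (standard error 0.17) did not pass (adjusted p = 0.302, edgeR), and its 95% interval ran from -0.65 to 0.16. As the libraries are bulk, fewer cells with a transcript and less of it per cell cannot be told apart.

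Of the 3 JUN genes Jun fell, and Junb and Jund did not pass. Jun, a single-exon gene on chromosome 4 from 95049036 to 95052222, encodes the main transactivating JUN protein. It was at 109, 112 and 108 CPM in 393P_vector and at 55.9, 60.5 and 63.4 CPM in 393P_ZEB1. No sample of either group came near the other. Jun fell by 0.87 on the log2 scale (standard error 0.10, adjusted p = 0.000321, edgeR), so that 393P_vector was 1.83-fold higher. Junb, on chromosome 8 from 84976909 to 84978748, encodes a JUN protein that is a weaker activator than JUN. Its 118, 127 and 151 CPM in 393P_vector overlapped with 129.6, 144 and 163 CPM in 393P_ZEB1. The log2 fold change was 0.14 (95% interval -0.17 to 0.45, adjusted p = 0.435, edgeR). Jund, also on chromosome 8, from 70697739 to 70700616, encodes the JUN protein most often found in resting cells. It was at 177, 199.8 and 142 CPM in 393P_vector and at 150.3, 149 and 148 CPM in 393P_ZEB1. Replicate 3 of 393P_vector was below all 3 393P_ZEB1 samples and the other 2 were above them. The change of -0.22 (95% interval -0.53 to 0.09) did not pass (adjusted p = 0.238, edgeR).

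The call for Jund depended on 393P_vector replicate 3, the library that stood apart. Without it the change of Jund was -0.34 and passed (adjusted p = 0.00384, edgeR), in a range of adjusted p from 0.00384 to 1.00 over all alternatives, whereas that of Junb was 0.25 and did not pass (adjusted p = 0.0565, edgeR). Limma voom with sample weights, which changed the test and the weight of every library, gave Jund at -0.30 (adjusted p = 0.00491) and Junb at 0.29 (adjusted p = 0.0130, in a range of 0.0130 to 1.00 over its alternatives). In that fit 393P_vector replicate 3 weighed 0.111 and the others 0.726 to 3.02.

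The make-up of each family was compared on CPM per kilobase of exon (CPM per kb), which allows genes of different length to be set side by side. In the FOS family Fosl2 held 56.0% ± 4.06 (SD, n = 3) of the summed level in 393P_vector and 43.4% ± 4.67 in 393P_ZEB1. The share of Fos rose from 3.68% ± 0.544 to 8.24% ± 1.23 and that of Fosb from 6.03% ± 0.792 to 11.5% ± 0.296, with no overlap of samples for any of these 3. Fosl1 overlapped, at 34.3% ± 5.14 and 36.8% ± 5.14. The family sum was 58.1, 58.2 and 55.0 CPM per kb in 393P_vector and 42.0, 47.8 and 43.6 CPM per kb in 393P_ZEB1, so the total was lower although the 2 least abundant members were higher. In the JUN family the share of Jun fell from 20.7% ± 0.541 to 12.6% ± 0.145 and that of Junb rose from 43.1% ± 5.59 to 52.8% ± 2.57. The nearest shares of Junb were close, at 49.6% in 393P_vector replicate 3 and 50.2% in 393P_ZEB1 replicate 1. Jund overlapped, at 36.2% ± 5.44 and 34.7% ± 2.55. The JUN sum was 166 ± 6.96 CPM per kb in 393P_vector and 149.7 ± 9.71 CPM per kb in 393P_ZEB1. The nearest samples of the 2 groups, at 159.9 and 159.7 CPM per kb, were almost equal. Shares within a family sum to 100%, so one that falls raises the others.

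**Figure D3:**
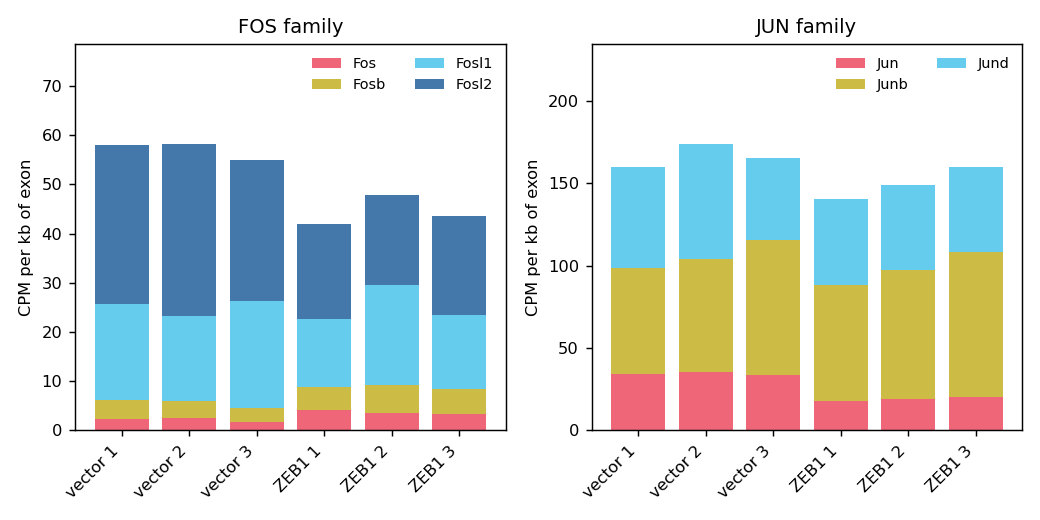
Stacked CPM per kb of exon (vertical axis, from 0) in each sample for the 4 FOS genes (left) and the 3 JUN genes (right). Fosl2 makes up 52.1% to 60.2% of the FOS bars in 393P_vector and 38.0% to 46.3% in 393P_ZEB1, and Jun 20.3% to 21.3% and 12.5% to 12.7% of the JUN bars.

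Since Fos rose and Jun fell, their ratio moved further than either gene. Fos per Jun, on CPM per kb, was 0.0645, 0.0687 and 0.0502 in 393P_vector and 0.231, 0.187 and 0.167 in 393P_ZEB1. These ratios did not overlap, and their means differed 3.19-fold. The ratio of Fosb to Fosl2 went from 0.108 to 0.267 on average and that of Junb to Jun from 2.09 to 4.2. A ratio within a sample does not depend on the library size and shows unequal change only. The 393P_vector order of levels per kb was Junb (71.7 ± 9.21, SD, n = 3), Jund (60.2 ± 10.1), Jun (34.4 ± 0.779), Fosl2 (32.0 ± 3.21), Fosl1 (19.5 ± 2.35), Atf3 (9.61 ± 0.689), Egr1 (5.55 ± 0.528), Fosb (3.45 ± 0.551), Fos (2.11 ± 0.371) and Batf3 (0.882 ± 0.156). In that order the samples of Junb and Jund overlapped, as did those of Jun and Fosl2. In 393P_ZEB1 Egr1 (28.5 ± 3.79) came next after Junb (79.1 ± 8.99) and Jund (51.7 ± 0.466). Fosl2 (19.2 ± 1.01), Jun (18.8 ± 1.19) and Fosl1 (16.5 ± 3.45) followed and overlapped with each other. Below them were Atf3 (8.01 ± 1.4), Fosb (5.12 ± 0.476), Fos (3.64 ± 0.372) and Batf3 (0.728 ± 0.280).

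Atf3, a stress-induced factor that forms dimers with JUN proteins and can repress or activate, lies on chromosome 1 from 191170297 to 191183333. It was at 17.5, 20.2 and 19.2 CPM in 393P_vector and at 12.6, 17.2 and 17.6 CPM in 393P_ZEB1. The highest 393P_ZEB1 sample passed the lowest 393P_vector sample by a small margin, and the change of -0.26 (95% interval -0.63 to 0.11) did not pass (adjusted p = 0.232, edgeR). Batf3, a partner of JUN best known from dendritic cells, lies on the same chromosome from 191098414 to 191108943. It had 41, 38 and 42 reads in 393P_vector and 27, 18 and 44 reads in 393P_ZEB1, the lowest counts of the 10 genes. In CPM this was 0.724, 0.646 and 0.506 against 0.505, 0.324 and 0.721. With an interval from -1.04 to 0.52 around a log2 change of -0.26 (adjusted p = 0.575, edgeR), a difference was not detectable at this depth.

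Egr1 changed most of the 10 genes. The gene lies on chromosome 18 from 34861207 to 34864956 and encodes a zinc finger factor induced by the ERK pathway. It was at 17.6, 15.2 and 18.3 CPM in 393P_vector and at 99.8, 86.5 and 76.6 CPM in 393P_ZEB1. The groups were far apart, with no sample between them. The log2 fold change was 2.36 (standard error 0.14, adjusted p = 1.25e-05, edgeR), a 5.14-fold rise with a 95% interval of 4.08 to 6.46, and Egr1 ranked 351 by increase among all tested genes. The exact two-sided permutation p was 0.1 for Egr1 as for Fos, Fosb, Fosl2 and Jun, the smallest that 3 samples against 3 allow.

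The chromosome of Egr1 was itself shifted. The 396 tested genes of chromosome 18 had a median log2 fold change of 0.64, and the 59 tested genes within 2 Mb of Egr1 had a median of 0.57. For the other 9 genes the chromosome median was between -0.13 and 0.07. Egr1 was 1.72 above the median of its chromosome and ranked 24 of the 396 by increase. The part of the chromosome in the rise of Egr1 was not tested, and a difference between the lines in this chromosome cannot be told apart from an effect of ZEB1.

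**Figure D4:**
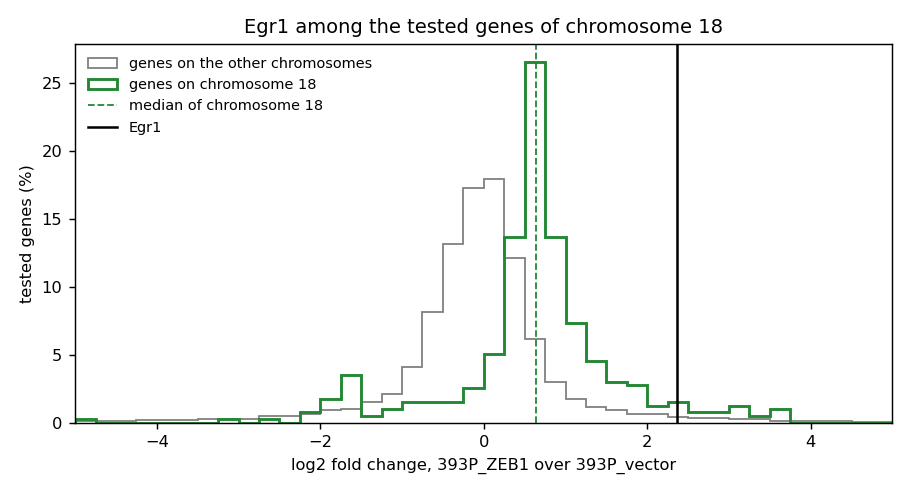
Share of tested genes (vertical axis, %) by log2 fold change of 393P_ZEB1 over 393P_vector (horizontal axis) for the 396 genes of chromosome 18 (green) and the genes of the other chromosomes (grey), drawn between -5 and 5. Egr1 (black line, 2.36) lies in the right tail, beyond the chromosome median of 0.64 (dashed).

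Relatives of Egr1 and an EGR corepressor gene also rose. Egr2 rose from 0.83, 0.901 and 0.542 CPM to 3.76, 2.86 and 3.28 CPM, a log2 fold change of 2.13 (adjusted p = 0.000408, edgeR). Nab2, which binds and represses EGR proteins and is also an EGR target, rose from 19.4, 22.9 and 18.7 CPM to 76.7, 75.1 and 77.0 CPM, a change of 1.91 (adjusted p = 1.38e-05, edgeR). Egr3, named after its values were seen, rose by 2.34 on the log2 scale from a mean of 0.296 to 1.5 CPM. Egr4 was below the low-count limit, and Nab1 was at 0.15 (adjusted p = 0.351, edgeR). The wider list of other immediate early genes did not move in one direction. Of 32 tested of 34, 9 rose, 5 fell and 18 did not pass, with a median log2 fold change of -0.02. The share called was 43.75%, beside 37.6% of all genes. Arc, a neuronal immediate early gene, fell from 8.0, 8.43 and 6.16 CPM to 0.841, 1.12 and 1.16 CPM. Gadd45b, a stress sensor upstream of p38 and JNK, fell from 26.2, 31.2 and 39.1 CPM to 5.10, 5.67 and 5.37 CPM. Their log2 fold changes were -2.85 and -2.58.

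Of 30 tested among 35 other bZIP factors, 10 rose, 6 fell and 14 did not pass, with a median of 0.17. This made 53.3% called, beside 37.6% of all genes. Crem, a cAMP-responsive factor also on chromosome 18, rose by 1.70 on the log2 scale, from 2.65 to 3.78 CPM in 393P_vector to 8.39 to 11.3 CPM in 393P_ZEB1. Maf, which encodes a large MAF protein, rose by 1.79. Nfe2l3, a CNC-type partner of small MAF proteins, fell by 4.79, from 13.7, 15.6 and 20.4 CPM to 0.692, 0.558 and 0.541 CPM. Of genes for direct JUN partners, Atf2 and Jdp2 did not pass, at 0.22 and 0.13. Atf7, another of them, passed at -0.52 (adjusted p = 0.0140, edgeR).

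Upstream, 37 MAP kinase cascade and ternary complex factor genes were tested, of which 8 rose, 6 fell and 23 did not pass. Their median was 0.06, and 37.8% were called, almost the same as the 37.6% of all genes. The ERK gene Mapk3 rose by 1.06 on the log2 scale, and Srf, whose protein acts at the Fos promoter, fell by 0.65. Of the ternary complex factor genes, Elk4 rose by 0.45, and Elk1 and Elk3 did not pass, at 0.12 and 0.10. The p38 activator Map2k6 rose from 12.6, 12.4 and 14.1 CPM to 59.0, 51.2 and 50.5 CPM, a change of 2.04. Mapk13, the p38 delta gene typical of epithelia, fell from 67.1, 70.9 and 55.4 CPM to 0.523, 0.522 and 0.639 CPM, a change of -6.83. The kinase gene Rps6ka5 (MSK1), which acts on chromatin at immediate early genes, rose by 1.87.

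Among 18 tested MAP kinase phosphatases and feedback inhibitors, 7 fell, 4 rose and 7 did not pass, with a median of -0.21. Called genes made up 61.1% of them, beside 37.6% of all genes. Spry4, an ERK feedback inhibitor on chromosome 18, rose from 25.7, 26.3 and 22.4 CPM to 129.3, 110.0 and 113 CPM, a log2 fold change of 2.24. Spry1, of the same family, fell from 19.4, 19.5 and 18.2 CPM to 2.88, 4.05 and 3.03 CPM, a change of -2.52. The X-linked phosphatase gene Dusp9 fell by 1.93. Dusp1, an immediate early phosphatase of p38 and JNK, was at 51.3, 51.2 and 95.8 CPM in 393P_vector and at 24.4, 33.2 and 28.9 CPM in 393P_ZEB1. It fell by 1.2 on the log2 scale (adjusted p = 0.00976, edgeR), and the highest sample was 393P_vector replicate 3.

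Downstream, 28 of 30 textbook AP-1 target genes were tested, of which 10 rose, 8 fell and 10 did not pass. Their median was 0.25, and 64.3% were called, beside 37.6% of all genes. The stromelysin and collagenase genes Mmp10 and Mmp13 rose by 5.13 and 4.44 on the log2 scale. Mmp10 went from 2.40, 2.26 and 2.29 CPM to 88.7, 79.4 and 75.6 CPM, and Mmp13 from 4.72, 4.49 and 3.36 CPM to 103, 82.7 and 85.9 CPM. Plau, the urokinase gene, went the other way, from 675, 697 and 590.2 CPM to 53.0, 55.7 and 58.9 CPM, a change of -3.55. Mmp9, encoding a gelatinase, was also lower, at 2.53, 2.35 and 2.03 CPM in 393P_vector and 10, 2 and 11 reads in the 3 393P_ZEB1 libraries. No binding of AP-1 was measured, so these counts describe the list and not its control.

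Heat shock genes respond to stress, including handling. Of 11 tested, 5 fell, none rose and 6 did not pass, so 45.5% were called beside 37.6% of all genes, with a median log2 fold change of -0.46. Their summed level was 2266 to 2875 CPM in 393P_vector and 1848 to 2028 CPM in 393P_ZEB1. Hspa1b was at 177, 172 and 361 CPM in 393P_vector and at 58.7, 77.6 and 55.2 CPM in 393P_ZEB1, and Hspa1a fell by 1.23 on the log2 scale. These 2 are near-identical copies, so how reads were split between them is uncertain. Dnajb1 and Hspe1 fell by 0.60 and 0.97. The part of stress, feeding or handling in the levels of Fos, Fosb, Jun and Egr1 was not tested.

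**Figure D5:**
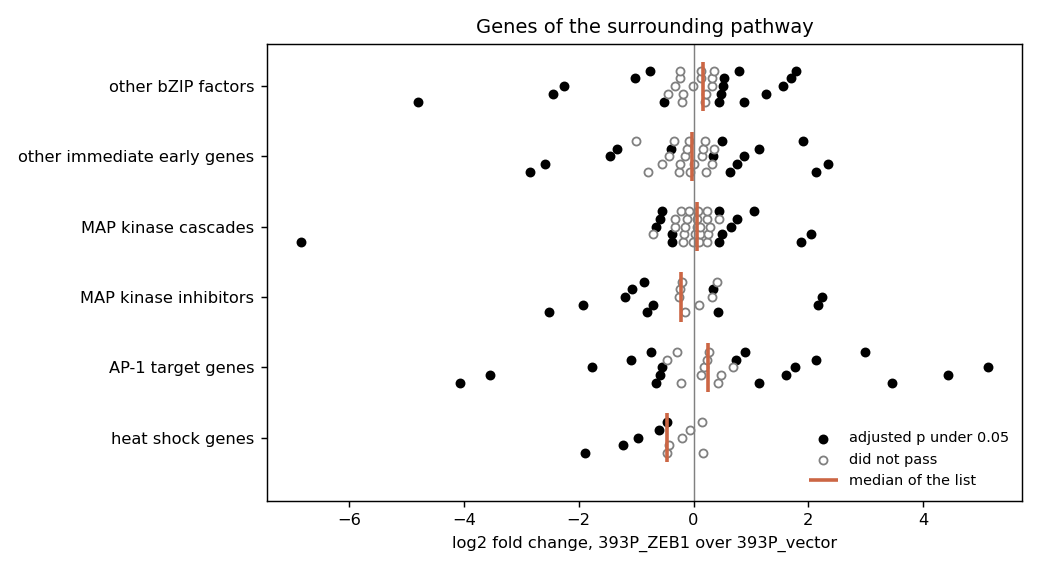
Log2 fold change of 393P_ZEB1 over 393P_vector (horizontal axis) for each tested gene of the 6 lists around AP-1. Filled points passed an adjusted p of 0.05 in edgeR, open points did not, and orange bars mark the list medians, which lie between -0.46 and 0.25.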

How the data were processed

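Total RNA of 6 samples (3 393P_vector, 3 393P_ZEB1) was sequenced with SOLiD chemistry. Per sample, the authors deposited raw read counts for 24214 RefSeq features of GRCm38, with exon lengths and an RPKM that was not used. The aligner, the counter and its use of strand are not given in the sources used here. Groups came from the labels, and no sample was left out.

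Counts were tested with edgeR 4.0.16 in R 4.3.3 (limma 3.58.1). The default filterByExpr minimum count of 10 left 13892 genes. TMM factors were 0.979 to 1.05. The quasi-likelihood fit was robust, with the condition as its coefficient and no block, and had a biological coefficient of variation of 0.184. Benjamini-Hochberg adjustment ran over all tested genes, with a threshold of 0.05. CPM used TMM-normalized library sizes, and CPM per kb divided them by the exon length. Counting error is the only error that the limit of 3 counts covers. Intervals of fold changes are 95%. The procedure was tested on simulated data. Tables used Python 3.11.15, pandas 2.3.3, SciPy 1.17.1 and matplotlib 3.10.9.

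The genes and lists were chosen with earlier results of these data known. All 10 genes are named. From each list around them, up to 4 genes are named: the largest changes among those past the threshold, with groups that do not overlap and a mean of at least 1 CPM. From the epithelial and mesenchymal marker lists the most abundant gene was named. Fibroblast, leukocyte and endothelial markers are given as sums and counts. A few others (Egr3, Egr4, Nab1, Atf2, Atf7, Jdp2, Srf, Elk1, Elk3, Elk4, Areg, Ereg, Hbegf, Ctgf and the lung epithelial markers) were named after their values were seen. Hras was listed but not matched, and some list genes are not reported here by name. Alternatives were DESeq2 1.42.0 (size factors and Wald test), limma voom with sample weights, other count filters, the replicate block, removal of the 10 most counted genes, a test against 1.5-fold, a threshold of 0.01, subtraction of the chromosome median, shares from raw counts, and leaving out each sample.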

Additional observations from a re-analysis of the deposited data

How the results depend on the processing

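Of 269 recomputed values, 246 kept their direction and side of the threshold, or stayed within the limits set for counts and shares. Another 15 no longer passed or gave smaller counts, 5 newly passed or gave larger counts, 3 moved and 0 were scored as reversed. Only fold changes could be scored as reversed, not shares. The share of Fosl1 changed by 2.55 percentage points, but by -0.39 without 393P_ZEB1 replicate 2. The share of Jund changed by -1.49, but by 0.46 from raw counts and by 0.42 without 393P_vector replicate 2. These switches of sign were counted as unchanged. Tested against a change of 1.5-fold, 1081 genes were higher and 1118 lower in edgeR, and among the 10 genes 1 was higher (Egr1) and 1 lower (Jun). Fos (0.79), Fosb (0.57) and Fosl2 (-0.74) then did not pass. At an adjusted p of 0.01, 1584 genes were higher and 1545 lower, and 1 of the 10 was higher, since Fos (0.79) and Fosb (0.57) did not pass. With limma voom and sample weights 3971 genes were higher and 4100 lower, and Junb (0.29) and Jund (-0.30) newly passed. Egr1 minus its chromosome median was 1.72. From raw counts in place of counts per kb, the share of Fos changed by 2.72 percentage points, beside 4.56 per kb, and that of Jun by -9.55 percentage points, beside -8.14.

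With each sample left out in turn, the log2 fold change ranged from 0.44 to 0.67 for Fosb and from -0.34 to -0.10 for Jund. The number of genes lower ranged from 1784, without 393P_ZEB1 replicate 3, to 3776, and of genes higher from 1861 to 3700. Among the 10 genes, 2 to 3 were higher and 2 to 3 lower.

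Same-numbered samples correlated in their deviations from the group means with r of 0.279, -0.205 and -0.0377, and differently numbered ones with r of -0.182 to 0.222, so the numbers were not taken to pair the samples. With the replicate number as a block, edgeR called 2180 genes higher and 2256 lower, and 3 and 2 of the 10. Fos was then at 0.80, Fosb at 0.58, Fosl2 at -0.73, Jun at -0.87 and Egr1 at 2.36, and no call among the 10 changed. Depth limits Batf3 most. The causes of these differences were not tested.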

Other observations

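By distance between log2 CPM profiles centred over the 6 samples, the genes most like Fosl2 among 13829 were Bora (distance 0.0969), Btbd9 (0.105) and Farp1 (0.116), with log2 fold changes of -0.70, -0.70 and -0.72. For Junb they were Idh3b (0.0792), Sbds (0.109) and Nubp1 (0.126), whose changes of 0.09, 0.09 and 0.19 did not pass in edgeR (adjusted p between 0.234 and 0.619). These distances describe 6 samples that fall into 2 groups.

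Ligands of the EGF receptor, which lie upstream of ERK and were listed as AP-1 targets, were named here after their values were seen. Areg rose from 67.6, 68.3 and 78.8 CPM in 393P_vector to 245, 215 and 270.2 CPM in 393P_ZEB1, a log2 fold change of 1.77 (adjusted p = 2.73e-05, edgeR). Ereg rose from 67.3, 60.2 and 98.7 CPM to 263, 222 and 202 CPM, a change of 1.6 (adjusted p = 0.000632, edgeR). Hbegf, on chromosome 18, rose from 262, 283 and 238 CPM to 473, 493 and 498 CPM, a change of 0.90 (adjusted p = 0.000405, edgeR), where the median of the chromosome was 0.64. Ctgf, a matrix gene of the immediate early list that was also named after its values were seen, fell from 448, 448 and 695 CPM to 185, 234 and 211 CPM, a change of -1.34 (adjusted p = 0.00141, edgeR).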
